A study of Mus musculus with 6 samples.

Results

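The proteasome genes were followed in mouse jejunal organoids, 3-dimensional cultures of the small intestinal epithelium, with and without induced deletion of Hnf4a, a nuclear receptor transcription factor of that epithelium. Members were chosen by name: every gene of the deposited table whose symbol starts with Psma, Psmb, Psmc, Psmd, Psme, Psmf or Psmg and a digit, except Psmb8 and Psmb9. This gave 46 of the 18448 genes in the table. The rule uses names alone, but it was set with earlier results of these data known. Psma8 and Psmb11 were not analysed here. One of the 46, Psmc3ip, carries the name without being part of the proteasome: it encodes a meiotic recombination factor named for binding Psmc3.

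All organoids were of strain C57BL/6 and genotype Villin-CreERT2; Hnf4aflox/flox, so that Cre was expressed from the villin promoter in epithelial cells and was active only with the tamoxifen metabolite 4-hydroxytamoxifen (4OHT). The DMSO group received vehicle and the 4OHT group received 0.5 µM 4OHT for 24 hours, after which cultures were split. Both groups were given 200 ng/mL recombinant mouse Wnt3A and harvested on day 2, with 3 poly(A)-selected RNA libraries in each group. Because every organoid carried the floxed alleles, an effect of 4OHT itself and an effect of losing Hnf4a cannot be told apart.

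The proteasome is the cell's main protease for proteins tagged with ubiquitin. Its 20S core is a barrel of stacked rings, with outer rings of alpha subunits (Psma genes) that gate entry and inner rings of beta subunits (Psmb genes), of which Psmb5, Psmb6 and Psmb7 carry the proteolytic sites. A 19S cap, built from ATPases (Psmc genes) that unfold substrates and non-ATPases (most Psmd genes) that bind ubiquitin and remove it, can dock on the core. Interferon signalling is known to induce the alternative catalytic subunits Psmb8, Psmb9 and Psmb10 and the activator made of Psme1 and Psme2, which together favour the production of peptides for antigen presentation. Core and cap are assembled with dedicated chaperones (Psmg1 to Psmg4 for the core, Psmd5, Psmd9 and Psmd10 for the cap). The transcription factor Nfe2l1 is known to raise the genes of core and cap together when proteasome activity is short.

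Levels are given as CPM, counts divided by a library's size and put on a common scale, where sizes were first adjusted by TMM (trimmed mean of M-values) so that libraries of different makeup can be compared. Differences are log2 fold changes, 4OHT over DMSO, with 95% intervals. They come from edgeR's quasi-likelihood F test over 14544 genes that passed a filter on low counts, with p-values adjusted by the Benjamini-Hochberg method over all of these genes. Genes with an adjusted p below 0.05 are referred to as called. Library totals were 31537100 to 40276242 counts, and member genes held between 70 and 17509 counts in a library. Nothing in the labels ties replicates to separate cultures or animals, and p-values therefore reflect how these particular libraries varied, possibly for technical reasons. Hnf4a itself was at 839.8, 846.2 and 1021 CPM in DMSO and at 435.9, 423.7 and 481.7 CPM in 4OHT, a log2 fold change of -1.01 (adjusted p = 0.0124). Hnf4a RNA was thus lower in each 4OHT library than in any DMSO library but remained at 447.1 ± 30.6 CPM (SD, n = 3). Epithelial markers were abundant in all libraries (Epcam at 893.3 to 1184 CPM), whereas the leukocyte marker Ptprc lay between 0 and 0.126 CPM.

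Promoter sequences are shown for 6 genes on which the results turn: Psme1, Psme2, Psmb10 and Psmg3, which had the most negative log2 fold changes of the members, Psmb5, which differed by almost nothing, and Psmd2, which had the largest positive difference among subunits. Each is the RefSeq window from 250 bases before to 50 bases after an annotated start on GRCm38.p6, written 5′ to 3′ on the gene's strand. Capitals mark every match, on either strand, to any of 7 motifs searched: TGACNNNGC (antioxidant response type, bound by factors such as Nfe2l1), CCAAT (NF-Y), CCGGAAG (ETS factors), GGGCGG (the GC box), CAAAGTCCA (HNF4), GAAANNGAA (interferon-stimulated type) and TTCNNNGAA (STAT type). The last 2 motifs were added after the values of Psme1, Psme2 and Psmb10 had been seen.
Psme1 promoter, chr14:55578244-55578543, plus strand: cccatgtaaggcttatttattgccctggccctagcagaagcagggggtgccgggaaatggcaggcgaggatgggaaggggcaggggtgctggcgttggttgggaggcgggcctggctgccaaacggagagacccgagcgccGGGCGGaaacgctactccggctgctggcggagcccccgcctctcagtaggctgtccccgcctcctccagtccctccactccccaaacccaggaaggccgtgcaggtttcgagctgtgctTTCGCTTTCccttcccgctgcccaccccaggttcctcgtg
Psme2 promoter, chr14:55591052-55591351, minus strand: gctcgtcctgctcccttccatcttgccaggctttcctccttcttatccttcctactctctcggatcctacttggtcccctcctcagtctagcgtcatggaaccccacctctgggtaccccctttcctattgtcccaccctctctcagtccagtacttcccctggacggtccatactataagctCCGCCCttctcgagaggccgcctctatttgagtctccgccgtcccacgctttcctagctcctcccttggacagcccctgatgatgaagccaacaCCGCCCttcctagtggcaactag
Psmb10 promoter, chr8:105938343-105938642, minus strand: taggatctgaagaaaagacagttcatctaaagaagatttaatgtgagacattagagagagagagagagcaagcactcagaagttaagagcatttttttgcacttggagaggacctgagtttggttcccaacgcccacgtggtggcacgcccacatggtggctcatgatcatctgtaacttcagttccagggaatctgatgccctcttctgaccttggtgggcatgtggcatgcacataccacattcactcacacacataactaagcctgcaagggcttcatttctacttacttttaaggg
Psmg3 promoter, chr5:139826845-139827144, minus strand: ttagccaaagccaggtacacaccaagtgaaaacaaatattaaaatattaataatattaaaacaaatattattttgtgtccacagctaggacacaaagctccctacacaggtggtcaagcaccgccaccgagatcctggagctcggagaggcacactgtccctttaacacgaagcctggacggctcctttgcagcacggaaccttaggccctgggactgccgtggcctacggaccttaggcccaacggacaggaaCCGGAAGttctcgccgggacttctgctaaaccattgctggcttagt
Psmb5 promoter, chr14:54617946-54618245, minus strand: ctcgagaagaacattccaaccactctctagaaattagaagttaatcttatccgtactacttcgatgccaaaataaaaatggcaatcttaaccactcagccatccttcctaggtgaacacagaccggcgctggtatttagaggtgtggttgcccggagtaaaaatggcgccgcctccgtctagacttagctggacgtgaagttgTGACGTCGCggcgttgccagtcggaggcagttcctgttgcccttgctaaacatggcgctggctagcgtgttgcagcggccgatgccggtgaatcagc
Psmd2 promoter, chr16:20651402-20651701, plus strand: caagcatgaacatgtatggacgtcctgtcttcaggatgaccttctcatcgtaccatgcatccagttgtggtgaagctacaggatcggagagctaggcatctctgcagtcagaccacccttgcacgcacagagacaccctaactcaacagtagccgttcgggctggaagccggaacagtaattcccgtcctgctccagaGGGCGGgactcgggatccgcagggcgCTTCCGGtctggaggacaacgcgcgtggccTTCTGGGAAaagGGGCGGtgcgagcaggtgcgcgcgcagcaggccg

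In these windows Psme1 held a GC box and, on the opposite strand, an interferon-stimulated type match near the start. Psme2 held 2 GC boxes on the opposite strand, and a second annotated start of Psme2 gave an overlapping window with the same matches. Psmb10 held none of the 7 motifs, Psmg3 held an ETS match, and Psmb5 held an antioxidant response type match. Psmd2 held 2 GC boxes, an ETS match and a STAT type match. A match is a run of letters, not a measured binding site.

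Across the members, 39 of 46 had a RefSeq window. Some genes have several windows (42 for these 39 members), and a gene was counted once if any of its windows held the letters. ETS matches were found for 15 of the 39 (38.5%), beside 9.93% of all 27025 genes in the table and 19.8% of the 10048 tested genes in it. They occurred for 9 of 14 cap subunits, Psmc1, Psmc2, Psmc6, Psmd2, Psmd4, Psmd6, Psmd11, Psmd12 and Psmd13, and for 1 of 11 core subunits, Psma6. On the gene's own strand alone, the ETS letters were found for 10 of the 39 (25.6%, beside 5.4% of all genes and 11.2% of tested genes). Among the 10 were 4 cap subunits (Psmc6, Psmd4, Psmd6 and Psmd13) and Psma6. The GC box was in 22 (56.4%, beside 38.2% of all genes and 67.5% of tested genes) and CCAAT in 13 (33.3%, beside 41.1% and 43.2%). CCAAT on the gene's own strand alone was in 12, where the members' share was the higher one (30.8%, beside 23.7% and 25.2%). The antioxidant response type motif was in 6, those of Psmb5, Psmb6, Psmc6, Psmd9, Psmd12 and Psme4 (15.4%, beside 14% and 17%). The interferon-stimulated type motif was in 7 (17.9%, beside 9.76% and 8.23%) but in 3, without Psme1, on the gene's own strand alone (7.69%, beside 5.15% and 4.11%). The STAT type was in 2, Psmd2 and Psmg1 (5.13%, beside 9.55% and 8.27%). No member window held the HNF4 letters, which 0.555% of all genes and 0.597% of tested genes held. Apart from the own-strand counts given above, motifs were counted on both strands, and they may overlap.

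Core and cap subunits of the proteasome differed little in RNA level between 4OHT and DMSO, from -5.7% for Psma7 to 10.6% for Psmd2 with a median log2 fold change of 0.019, and none was called. The most negative differences among members were those of Psme2, Psmg3, Psmb10 and Psme1. All 46 members passed the filter on low counts, and edgeR called 0 of them, where 0.908% of all tested genes (132) were called. DESeq2 called 0 members (5.24% of all genes) and limma-voom called 0 (0.846% of all genes). At an unadjusted p under 0.05, edgeR had 2 members lower, Psme2 and Psmg3, where 6.35% of all genes were lower at that p, and 0 members higher, beside 8.65% of all genes. The median log2 fold change of the 46 was 0.010, beside -0.004 over all tested genes, and 26 members (56.5%) lay above 0, beside 49.2% of all tested genes. Tested genes with a mean of 100 to 500 CPM were close to the members, with a median of 0.011 and 54.6% above 0. The median size of the difference, whatever its sign, was 0.037 for members, 0.119 for all tested genes and 0.080 for the 2220 tested genes with a mean of 100 to 500 CPM.

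**Figure D1:**
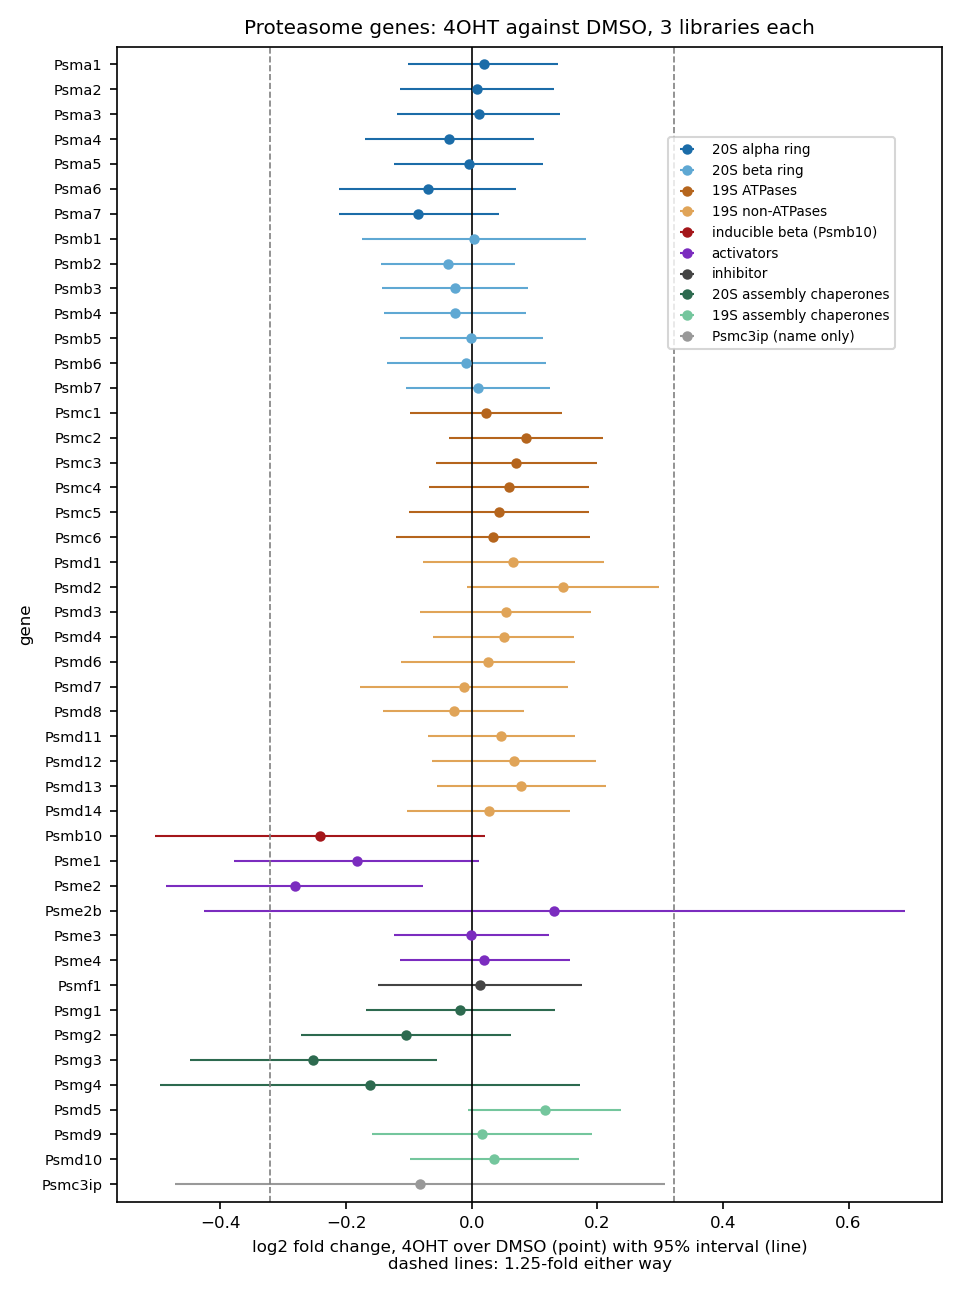
Log2 fold change (4OHT over DMSO, horizontal axis) of each of the 46 proteasome genes, grouped by role and colour; points are edgeR estimates, lines are 95% intervals from 3 libraries per group, and dashed lines mark 1.25-fold either way. All 31 intervals of core and cap subunits lie between the dashed lines, and the estimates farthest to the left are Psme2 (-0.28), Psmg3 (-0.25) and Psmb10 (-0.24).

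The intervals bounded most of these differences, as far as the spread between these particular libraries goes. The 95% interval stayed within 1.25-fold either way for 39 of 46 members (84.8%), beside 38.6% of all tested genes. For the constitutive core and cap subunits it did so in 31 of 31, beside 65.4% of the 2220 genes of 100 to 500 CPM. Their highest library was 1.04 to 1.21 times their lowest (median 1.11). The median ratio was 1.34 for all tested genes and 1.2 for those of 100 to 500 CPM. The coefficient of variation of these 31 genes over the DMSO libraries had a median of 2.72%, where counting error alone gives 1.46%. The 7 members whose intervals reached past 1.25-fold were Psmb10, Psme1, Psme2, Psme2b, Psmg3, Psmg4 and Psmc3ip, and only Psme2b reached past 1.5-fold.

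The alpha ring of the core, 7 genes, had 3 members above 0 and 4 below, with a median of -0.005. Psma7 had the most negative value: it was at 157.1, 159.9 and 162.9 CPM in DMSO and at 143.9, 155.4 and 153.3 CPM in 4OHT. Each 4OHT library was below each DMSO library, and the log2 fold change was -0.09 (interval -0.212 to 0.043, adjusted p = 0.517). Psma1, which had the most positive value, was at 148.5, 149.6 and 142.4 CPM and at 145.9, 148.0 and 152.4 CPM in the same order, with a log2 fold change of 0.02 (interval -0.101 to 0.138). Its groups overlapped, with 4OHT replicate 3 the highest library and DMSO replicate 3 the lowest. Psma5 stood at 125.4, 125.5 and 125.6 CPM in DMSO and at 121.1, 124.4 and 129.7 CPM in 4OHT.

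The beta ring, 7 genes, had 2 members above 0 and 5 below, with a median of -0.009 and no value farther from 0 than that of Psmb2. Psmb5, the subunit with chymotrypsin-like activity and the main target of bortezomib, was at 109.7, 108.0 and 104.2 CPM in DMSO and at 107.8, 105.9 and 108.0 CPM in 4OHT. The values of the groups overlapped, and the log2 fold change was -0.001 (interval -0.115 to 0.113, adjusted p = 0.995). Psmb6, with caspase-like activity, had -0.009 (interval -0.135 to 0.118), and Psmb7, with trypsin-like activity, had 0.010 (interval -0.104 to 0.125). Psmb2, a structural subunit, was at 104.5, 104.8 and 103.0 CPM in DMSO and at 100.9, 100.9 and 102.3 CPM in 4OHT. The groups did not overlap although the difference was small, -0.04 (interval -0.145 to 0.069, adjusted p = 0.75). Summed over each ring, alpha subunits had 1.02 to 1.05 times the CPM of beta subunits in the 6 libraries.

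Of the 17 cap subunits 15 had a log2 fold change above 0, beside 5 of 14 core subunits, and edgeR called none of the 17. Of all tested genes 49.2% were above 0, and of those with a mean of 100 to 500 CPM 54.6% were. The cap ranged from -0.03 for Psmd8 to 0.15 for Psmd2. All 6 ATPases were above 0 (median 0.051), as were 9 of 11 non-ATPases (median 0.051), the exceptions being Psmd7 at -0.013 and Psmd8 at -0.029. Psmd2, a scaffold of the cap that receives ubiquitin-like carriers, was at 415.6, 405.3 and 371.2 CPM in DMSO and at 447.5, 430.3 and 440.8 CPM in 4OHT. The lowest 4OHT library was above the highest DMSO library, with a log2 fold change of 0.15 (interval -0.008 to 0.298, adjusted p = 0.356). Psmc2, an ATPase, was at 134.0, 131.3 and 125.3 CPM in DMSO and at 135.2, 139.2 and 140.4 CPM in 4OHT, which did not overlap (0.09, interval -0.036 to 0.209, adjusted p = 0.49). Psmd14, the deubiquitinase of the cap, was at 119 ± 4.61 CPM in DMSO and 121 ± 3.80 CPM in 4OHT (SD, n = 3), a log2 fold change of 0.03. Psmd4, a ubiquitin receptor, was at 131 ± 1.47 and 136 ± 2.42 CPM (SD, n = 3), a log2 fold change of 0.05.

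Set against the core in the same library, the summed CPM of the cap's 17 genes was 1.49, 1.46 and 1.39 times that of the core's 14 genes in DMSO and 1.57, 1.5 and 1.51 times in 4OHT. The ratios of the groups did not overlap, though those of DMSO replicate 1 and 4OHT replicate 2 were close. DMSO replicate 3, the lowest of the 6, contributed to that difference. In it, 16 of 17 cap subunits were below the mean log2 CPM of DMSO replicates 1 and 2 (median -0.082), and 8 of 14 core subunits were (median -0.015). Without DMSO replicate 3, 13 of 17 cap subunits were above 0 (median 0.018), beside 1 of 14 core subunits (median -0.027). Without replicate 3 of both groups, the counts were 10 of 17 (median 0.006) and 0 of 14 (median -0.039).

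**Figure D2:**
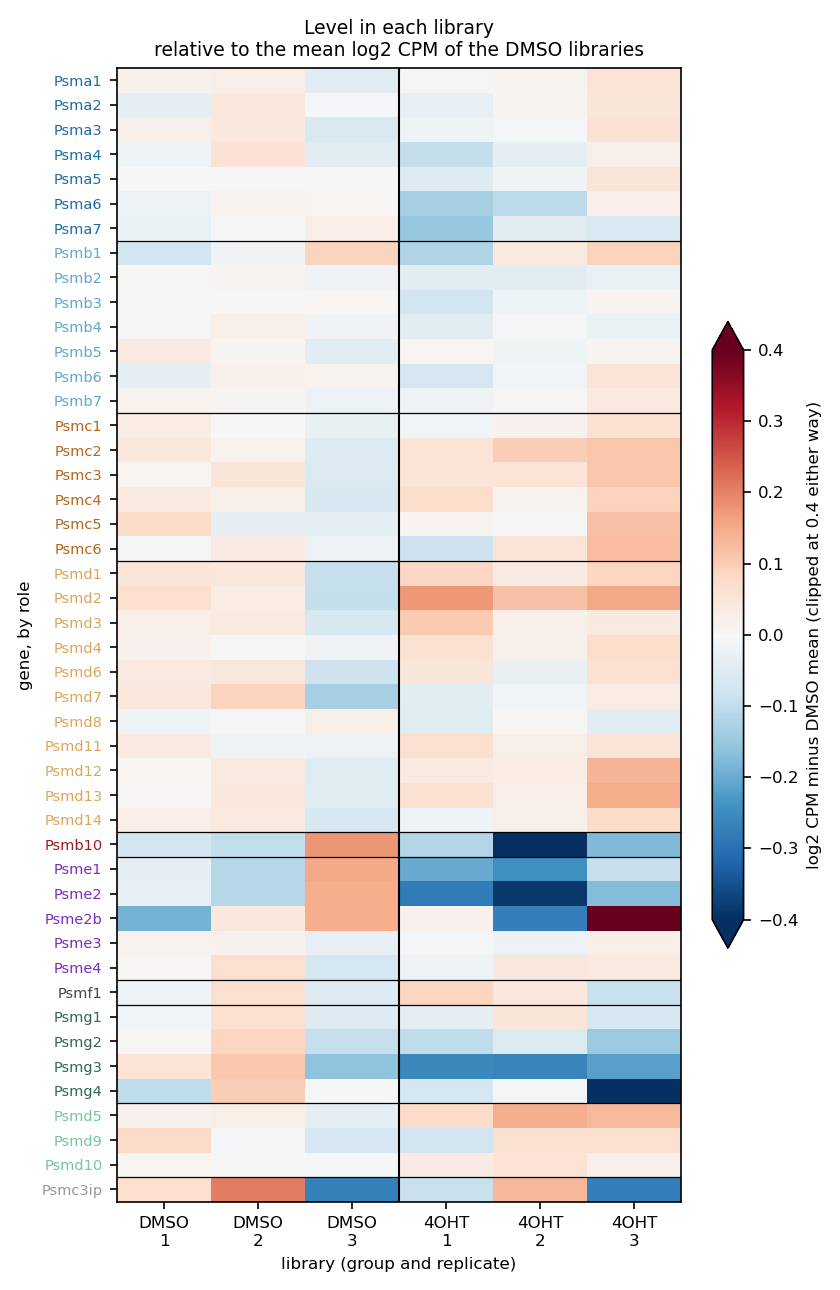
Level of each proteasome gene in each of the 6 libraries as log2 CPM minus the mean of the DMSO libraries (colour, clipped at 0.4 either way), with genes in rows by role and libraries in columns. The DMSO replicate 3 column is below its group for 34 of 46 genes, and Psmb10, Psme1 and Psme2 are above the DMSO mean there and below it in every 4OHT library.

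Replicate 3 stood apart in both groups, and the members' medians went opposite ways in it. Compared with the average log2 CPM over replicates 1 and 2 within its group, 34 of 46 members were lower in DMSO replicate 3 (median -0.058), beside 7264 of all 14544 tested genes (median 0). In 4OHT replicate 3, 9 of 46 were lower than that average (median 0.051), beside 7317 of all 14544 (median -0.002). As a share of all counts, members held 0.585%, 0.593% and 0.549% in DMSO and 0.573%, 0.579% and 0.585% in 4OHT. Summed enterocyte markers (14 of 14 genes measured) were at 5771, 5226 and 11860 CPM in DMSO and 4752, 3573 and 6345 CPM in 4OHT, highest in replicate 3 of each group. Summed goblet cell markers (7 of 7) were at 2269, 2229 and 4201 CPM and at 4653, 3619 and 6131 CPM, and proliferation markers (8 of 8) at 1764, 1896 and 1603 CPM and at 1714, 1893 and 1628 CPM. The part that cell composition had in the members' values was not tested, and in bulk RNA fewer cells of a type and less RNA per cell cannot be told apart.

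Of Psmb10, Psme1 and Psme2, the interferon-inducible members, none was called by edgeR without the replicate block and Psme2 alone was called lower with it. Their log2 fold changes were -0.24, -0.18 and -0.28. Psme2, the beta subunit of the PA28 activator, was at 94.8, 89.7 and 107.3 CPM in DMSO and at 79.9, 74.2 and 86.0 CPM in 4OHT. The highest 4OHT library was below the lowest DMSO library. The log2 fold change was -0.28 (interval -0.487 to -0.077), 17.8% lower, with an adjusted p of 0.194 by edgeR. With the replicate number as a block in the fit, Psme2 was called lower (-0.28, adjusted p = 0.0234), the 1 member so called, where 6.99% of all genes were called in either direction and 3.0% were called lower. In the authors' deposited table its log2 fold change was -0.283, with an edgeR p of 0.022 and an adjusted p of 0.28, and 0 of 46 members had an adjusted p under 0.05 there.

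Psme1, the alpha subunit that forms a ring with Psme2, was at 97.1, 92.1 and 110.8 CPM in DMSO and at 86.7, 84.1 and 93.5 CPM in 4OHT. It was lower in 4OHT for each replicate number, but 4OHT replicate 3 lay above DMSO replicate 2. The log2 fold change was -0.18 (interval -0.378 to 0.012, adjusted p = 0.362, and 0.0667 with the block). Psme1 and Psme2 lie on chromosome 14 of GRCm38, at 55578123 to 55581529 on the plus strand and at 55587441 to 55591113 on the minus strand, with their 3′ ends facing each other across 5911 bp. No other pair of members lies within 100 kb, and the 46 are spread over 16 chromosomes. The ratio of Psme2 to Psme1 was 0.976, 0.974 and 0.969 in DMSO and 0.921, 0.883 and 0.919 in 4OHT. That ratio varied little within DMSO, and all 4OHT values were lower.

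Psmb10, the inducible counterpart of Psmb7, was at 42.2, 41.5 and 50.2 CPM in DMSO and at 41.0, 32.9 and 39.4 CPM in 4OHT. The groups did not overlap, but 4OHT replicate 1 was close to DMSO replicate 2. The log2 fold change was -0.24 (interval -0.505 to 0.021, adjusted p = 0.372, and 0.115 with the block). The ratio of Psmb10 to Psmb7 was 0.280, 0.277 and 0.343 in DMSO and 0.278, 0.220 and 0.257 in 4OHT, which overlapped. Psmb10 spans chromosome 8 from 105935735 to 105938444 on the minus strand, far from the other inducible subunits. Psmb8 and Psmb9, which lie outside the naming rule, were barely expressed: Psmb8 at 0.519 ± 0.104 CPM in DMSO and 0.353 ± 0.0381 CPM in 4OHT, and Psmb9 at 1.92 ± 0.801 and 1.39 ± 0.334 CPM (SD, n = 3). Psmb8 amounted to 0.483% of the CPM of Psmb5 in DMSO and 0.329% in 4OHT.

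Psmb10, Psme1 and Psme2 were all below 0 in each of the 14 alternative fits, and in both groups the replicate 3 value of each was above the mean log2 CPM of replicates 1 and 2, by medians of 0.228 in DMSO and 0.132 in 4OHT. Psmb10 in 4OHT replicate 3 was nonetheless below replicate 1. Of the enterocyte markers, 14 of 14 were below 0 (median -0.55, 0 called by edgeR, 6 of them at an unadjusted p under 0.05, and 6 called lower with the block), and their replicate 3 medians were 0.83 in DMSO and 0.45 in 4OHT. Goblet cell markers also had positive replicate 3 medians (0.942 in DMSO and 0.624 in 4OHT), but 7 of 7 were above 0. Enteroendocrine markers had 0.464 and 0.25, with 5 of 6 above 0. Stem and crypt markers were below 0 in 8 of 8 (median -0.353, 1 called by edgeR), with replicate 3 medians of -0.392 and -0.502. The summed leukocyte markers, of which Ptprc, Lyz2 and Itgam were measured, were at 1.67, 1.55 and 3.09 CPM in DMSO and 1.26, 1.43 and 2.06 CPM in 4OHT, nearly all from Itgam. Fibroblast markers (Col1a1 and Pdgfra) summed to at most 0.458 CPM. The part of these cells in the result was not tested.

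None of the other activators was called. Psme3, the nuclear activator that forms a ring of its own, was at 304.9, 305.6 and 294.9 CPM in DMSO and at 300.7, 296.9 and 307.4 CPM in 4OHT. The groups overlapped, and the log2 fold change was -0.001 (interval -0.124 to 0.123, adjusted p = 0.997). Psme4, the large single-chain activator PA200, had 0.02 (interval -0.115 to 0.156). Psme2b, a single-exon copy of Psme2, was at 2.08, 2.45 and 2.63 CPM in DMSO and at 2.41, 1.97 and 3.45 CPM in 4OHT, and its interval (-0.427 to 0.689) was the widest of the members. Of the 50-base stretches of the longest Psme2 transcript, 59.3% also occur in Psme2b, and how reads shared by both were counted is not given in the sources used here. Psmf1, an inhibitor of the core, had a log2 fold change of 0.01 (interval -0.150 to 0.176).

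**Figure D3:**
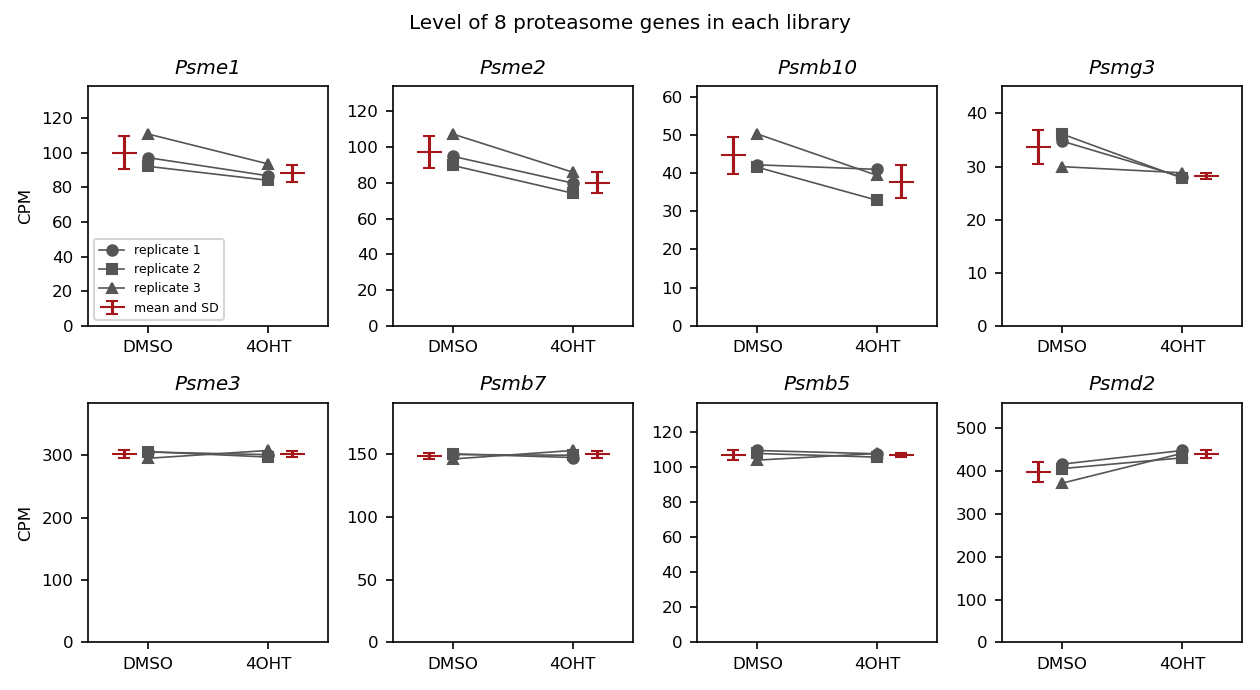
CPM (vertical axis, from 0) of 8 proteasome genes in each library, with lines joining equal replicate numbers and, in red, the mean and SD of 3 libraries. Lines of Psme1, Psme2, Psmb10 and Psmg3 go down in every pair, Psme3, Psmb7 and Psmb5 are nearly level, and Psmd2 goes up from 397 to 440 CPM on average.

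No assembly chaperone was called by edgeR. The log2 fold changes of the core's chaperones, Psmg1 to Psmg4, were all below 0, with a median of -0.133, and those of the cap's 3 chaperones were all above 0, with a median of 0.036, where 49.2% of all tested genes were above 0. Psmg1 at -0.02 and Psmd9 at 0.02 were close to 0 and had the other sign in 2 and 4 of the 14 alternative fits. Psmg3, which forms a pair with Psmg4 under the alpha ring, was at 34.8, 36.1 and 30.0 CPM in DMSO and at 28.1, 27.8 and 28.8 CPM in 4OHT. The groups did not overlap, and the 4OHT libraries were closer together (28.2 ± 0.516 CPM, SD, n = 3) than the DMSO libraries (33.6 ± 3.24 CPM). The log2 fold change was -0.25 (interval -0.449 to -0.056), 16.1% lower, with an adjusted p of 0.224 by edgeR. Without DMSO replicate 3, the lowest DMSO library, Psmg3 was called lower (-0.34, adjusted p = 0.0454, where 2.29% of all genes were called), and without replicate 3 of both groups it was again (-0.35, adjusted p = 0.0371, where 4.1% were). With the block it was not called (adjusted p = 0.114).

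Psmg4 had a log2 fold change of -0.16 (interval -0.496 to 0.172) at the lowest level of the chaperones, 7.86 ± 0.550 CPM in DMSO, and Psmg2 had -0.10 (interval -0.272 to 0.063). Psmg1 had -0.02 (interval -0.168 to 0.133). Of the cap chaperones, Psmd5 was at 58.1, 58.3 and 55.8 CPM in DMSO and at 60.5, 63.4 and 62.7 CPM in 4OHT. Each 4OHT library was above each DMSO library (0.12, interval -0.006 to 0.238, adjusted p = 0.356). Psmd10, also known as the oncoprotein gankyrin, was at 27.1 ± 0.164 CPM in DMSO and 27.8 ± 0.320 CPM in 4OHT (SD, n = 3), which did not overlap, and Psmd9 had 0.02. Psmc3ip, the member by name only, had -0.08 (interval -0.472 to 0.307).

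DMSO and 4OHT values did not overlap in 11 members (23.9%), a share near that of all tested genes (22.6%). The 6 with 4OHT higher were Psmc2, Psmc3, Psmd2, Psmd4, Psmd5 and Psmd10 (12.5% of all genes), and the 5 with 4OHT lower were Psma7, Psmb2, Psmb10, Psme2 and Psmg3 (10.1% of all genes). All 3 pairs of equal replicate number went one way in 37.0% of members, beside 49.8% of all tested genes: 7 members were higher in each pair (25.3% of all genes) and 10 lower (24.5% of all genes).

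Within the core, subunits that enter the particle in equal numbers differed in CPM per annotated exon length. On the scale of CPM per kilobase of exon (all annotated exons of a gene joined), beta subunits ran from 119 for Psmb5 to 33.9 for Psmb1 in DMSO, a ratio of 3.52. The order Psmb5, Psmb4, Psmb2, Psmb6, Psmb3, Psmb7, Psmb1 was the same in 6 of 6 libraries. Alpha subunits ran from 125 for Psma6 to 37.3 for Psma3 (ratio 3.35), and here the order from highest to lowest mean was found in 1 library, since Psma7, Psma4 and Psma1 (52.1 ± 0.938, 50.7 ± 1.86 and 49.7 ± 1.32, SD, n = 3) and Psma2 and Psma3 (38.2 ± 1.04 and 37.3 ± 1.42) lay within their spread. The ATPases ran from 98.3 for Psmc1 to 25.9 for Psmc2 and the non-ATPases from 98.4 for Psmd2 to 24.5 for Psmd11.

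The scale matters for these orders and for their spread. Before division by length, beta subunits ran from 104.1 CPM for Psmb2 to 179.5 CPM for Psmb4 in DMSO. Psmb1 (155.9 CPM, 4595 bp of joined exons) was then above Psmb5 (107.3 CPM, 899 bp). Which annotated transcripts were expressed was not tested. Per kilobase of the longest annotated transcript, Psmb4 (152) came first among beta subunits and Psmb7 (52.3) last, with a ratio of 2.9. On that scale the beta order by DMSO mean was found in 2 of 6 libraries. Reads shared with copies elsewhere matter too: 25 members share no 50-base stretch with another gene's transcripts, but 9 share over 10%, among them Psmb5 (57.1%), Psma5 (54.5%) and Psmd2 (26.1%). Per kilobase of joined exons, some regulators spread more widely than subunits and some less. The highest was 35.8 times the lowest among activators, where Psme2b was lowest, 5.23 times among cap chaperones and 2.33 times among core chaperones. In DMSO the chaperones ranged from 27.1 for Psmg1 to 3.53 for Psmd9, Psmf1 was at 6.41, and the activators spanned 102 for Psme3, 55.2 for Psme2, 45.3 for Psme1, 20.4 for Psme4 and 2.85 for Psme2b, in that order in 6 of 6 libraries. Psmb10 was at 26.2, beside 43.5 for Psmb7.

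**Figure D4:**
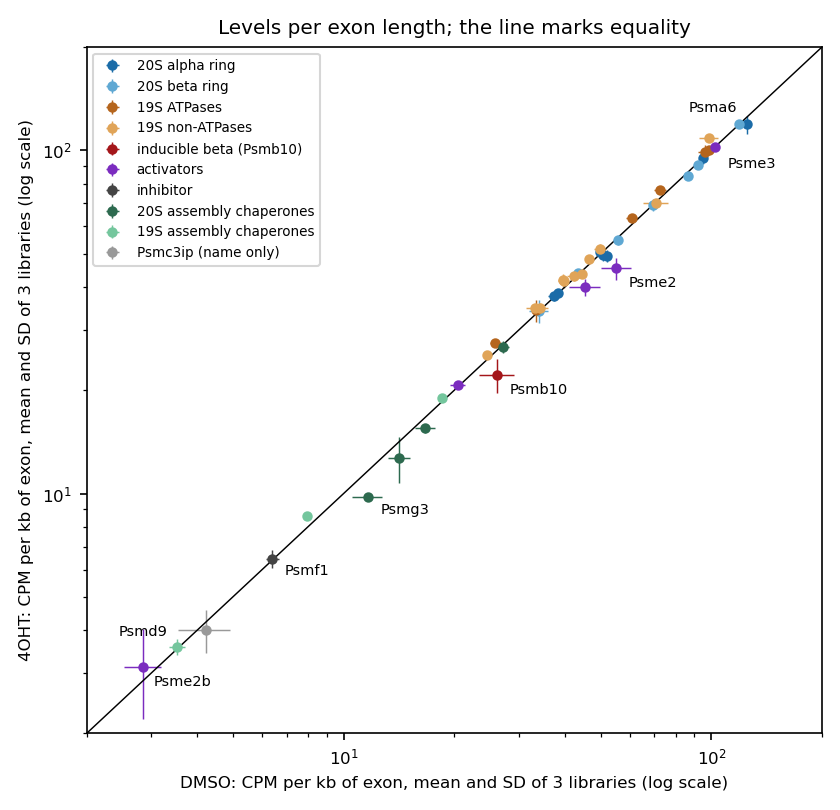
Level of each proteasome gene in 4OHT (vertical) against DMSO (horizontal), both in CPM per kilobase of exon on log scales, with points and bars for the mean and SD of 3 libraries and a line of equality. Subunits of core and cap cluster at the upper end on the line, whereas Psme2, Psmb10 and Psmg3 lie under it.

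Where exons of another gene lie on the opposite strand, counts may be mixed if strand was not used in counting, which the sources used here do not give. This concerns over 10% of exon length in 4 members: Psmd9 (25.5%), Psmc3ip (21.2%), Psmb7 (11.8%) and Psmd13 (10.1%). On the same strand, where strand cannot separate reads, other exons overlap 12.1% of Psmb5 (Mir686) and 9.68% of Psmg3 (Gm26938). In 8 members a protein-coding gene starts on the opposite strand within 1000 bp of the member's start, closest for Psmc2 and Dnajc2 at 32 bp. Among the others are Psma2 with the mitochondrial ribosomal gene Mrpl32 (75 bp), Psmb1 with Tbp, the TATA-binding protein (137 bp), and Psme2 with Rnf31, a ubiquitin ligase (595 bp).

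Other genes of ubiquitin-dependent proteolysis were not called either, except with the replicate block and, for Ubqln2, without replicate 3 of both groups. Of 28 tested genes on a list of associated proteins, shuttle factors, regulators, ubiquitin genes and E1 enzymes, edgeR called 0 (0.908% of all genes). At an unadjusted p under 0.05, edgeR had 1 of the 28 higher (8.65% of all genes) and 0 lower (6.35%). DESeq2 and limma-voom also called 0, beside 5.24% and 0.846% of all genes. Of the 28, 14 lay above 0, and the median was 0.001. Nfe2l1, the activator of proteasome genes, was at 143.7, 139.3 and 145.7 CPM in DMSO and at 155.4, 147.9 and 161.7 CPM in 4OHT. Its groups did not overlap, with a log2 fold change of 0.12 (interval -0.014 to 0.249, adjusted p = 0.384).

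With the block, 2 of the 28 were called, both higher. Of all tested genes, 6.99% were called with it in either direction, and 3.99% were called higher. Nfe2l2, the regulator of the oxidative stress response, was at 282.8, 258.0 and 338.9 CPM in DMSO and at 325.0, 333.5 and 415.0 CPM in 4OHT. The groups overlapped, but each 4OHT library was above the DMSO library of its number (0.29, adjusted p = 0.373 without the block and 0.0359 with it). Ubqln2, a shuttle factor that carries ubiquitinated proteins to the proteasome, was at 36.7, 38.3 and 32.5 CPM in DMSO and at 47.2, 46.8 and 37.5 CPM in 4OHT. It was higher in 4OHT in each pair (0.29, adjusted p = 0.281 without the block and 0.0386 with it). Usp14, a deubiquitinase of the cap, had 0.14 (adjusted p = 0.428), Pomp, the maturation factor of the core, had -0.08 (adjusted p = 0.561), Ubb, a polyubiquitin gene, had -0.12 (adjusted p = 0.462), and Uba1, the main E1 enzyme, had 0.08 (adjusted p = 0.548).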

How the data were processed

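Poly(A) RNA of mouse jejunal organoids was sequenced in 6 libraries, 3 per group. STAR 2.4.0f1, bcl2fastq 1.8.4 and build GRCm38 are named per the submitters' processing notes, and a directional kit was used on 250 ng of RNA per library, per the labels' protocols. The program that counted reads and its strand setting are not given in the sources used here. The authors deposited raw counts of reads per gene for each library, per the file headers, which were used for every test. They also deposited a normalised score per gene, a log2 fold change, a mean log2 level, and p-values from DESeq and edgeR, per the file headers. Of these, log2 fold changes and p-values of members served for comparison alone. Every gene of the table had at least 10 counts over the 6 libraries.

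Counts were analysed with edgeR 4.0.16 in R 4.3.3: filterByExpr kept 14544 genes and removed 3904, library sizes were scaled by TMM, and 4OHT was compared with DMSO with no other term. Alternatives were DESeq2 1.42.0, limma-voom (limma 3.58.1), other scaling, other filters, each library left out, replicate 3 of both groups left out, and the replicate number as a block. Across genes, same-numbered libraries of the 2 groups deviated from their group means together (correlations of 0.303, 0.332 and 0.427), so the numbers may mark pairs, although the labels name no shared culture or day. Calls rest on the fit without the block, and the paired fit is given beside them where it changed a call. Lengths, positions and shared 50-base stretches came from GENCODE mouse release 21, where all 46 members were found. Promoters came from RefSeq (GRCm38.p6). The code was tested on simulated counts.

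The members and the gene lists were chosen with earlier results of these data known. Genes named by rule were Hnf4a, members called with or without the block, in each role the highest and lowest level per exon length and the largest rise and fall, and of the related genes those called and the smallest p of each kind. Other members, Psmb9, Nfe2l1 and markers are named to complete counts and were chosen after their values were seen.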

Additional observations from a re-analysis of the deposited data

How the results depend on the processing

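Directions of Psme2, Psmg3, Psmb10, Psme1, Psmd2 and Psmd5 held in each of 14 alternatives. The number of genes called over the whole table was 132, and 762 with DESeq2, 56 with the filter at 10 CPM, 1017 with the replicate block, 601 without replicate 3 of both groups and 4 to 340 with single libraries left out. Members called lower numbered 0, and 1 with the replicate block (Psme2, adjusted p 0.0234 to 0.462 over the alternatives), 1 without replicate 3 of both groups (Psmg3, 0.0371 to 0.479) and 0 to 1 with single libraries left out. Where a group was left with fewer libraries, spread was pooled over both groups. Of 46 members, 26 were above 0, but 13 without replicate 3 of both groups and 17 to 31 with single libraries left out, lowest without DMSO replicate 3. Their median of 0.010 became -0.033 without replicate 3 of both groups and ran from -0.015 to 0.023 with single libraries left out. The count of core and cap intervals within 1.25-fold was 30 or 31 of 31 in every alternative. Related genes called numbered 2 with the replicate block and 1 without replicate 3 of both groups (Ubqln2). With the block no call of another member or related gene, nor that of Hnf4a, differed. Marker calls did: Epcam was called lower (adjusted p = 0.0446, and 0.144 without it). Enterocyte markers called lower rose from 0 to 6 of 14, and goblet cell markers called higher from 0 to 6 of 7. Stem and crypt markers called lower went from 1 to 2, and enteroendocrine markers called higher from 0 to 1. Hnf4a ran from -1.07 to -0.921 with single libraries left out (adjusted p 0.00543 to 0.0951).

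Values near 0 changed sign. Without replicate 3 of both groups, they were -0.027 for Psma1, -0.05 for Psma3, -0.003 for Psmb1, -0.024 for Psmb7, -0.018 for Psmc1, -0.047 for Psmd9 and -0.06 for Psme2b. Psmb1 was at -0.002 with DESeq2, -0.002 with RLE size factors and -0.004 with no filter. With single libraries left out, the ranges were -0.01 to 0.031 for Psma1, -0.026 to 0.031 for Psma3, -0.041 to 0.053 for Psmb1, -0.028 to 0.015 for Psmb5 and -0.009 to 0.017 for Psmb7. They were -0.212 to 0.022 for Psmc3ip, -0.023 to 0.056 for Psmd9, -0.127 to 0.297 for Psme2b, -0.024 to 0.01 for Psme3, -0.033 to 0.062 for Psmf1 and -0.051 to 0.014 for Psmg1. On the gene's strand alone, TGACNNNGC was found for 3 members (7.69%, beside 9.18% of tested genes) and GGGCGG for 13 (33.3%, beside 46.6%). GAAANNGAA was found for 3 (7.69%, beside 4.11%), and CCGGAAG for 4 cap subunits. The cause of these differences was not tested.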
